A study of Mus musculus with 34 samples.

Results

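The genes described here encode the enzymes that build nucleotides and polyamines, with the kinases, salvage enzymes and regulators that act beside them. They were chosen by name, as a list of 37 genes, and each gene was read from the brightest probe set listed with its symbol alone. Of the 37, 33 were measured, among 19938 genes of the array table, and all 33 passed the filter on dim genes that kept 11413. Impdh2, Amd1, Sms and Oaz1 have no probe set of their own symbol alone in the annotation used and were not analysed here.

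Purine nucleotides are assembled step by step on phosphoribosyl pyrophosphate (PRPP), and pyrimidine nucleotides as a ring that is joined to PRPP later. Ribonucleotide reductase turns ribonucleotides into the deoxynucleotides of DNA, and kinases such as Dck, Tk1 and Tk2 recover deoxynucleosides from outside the pathway. Polyamines are small charged amines made from ornithine, and their synthesis, like that of nucleotides, is known to be raised in T cells that leave quiescence to divide.

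RNA came from CD4+ splenocytes of female mice, 8 weeks old, of 5 inbred strains (A/J, DBA/2J, C57BL/6J, 129X1/SvJ and Balb/c), taken with CD4 magnetic beads. At T1 the cells had been stimulated for 4 h with phorbol 12-myristate 13-acetate (PMA, 10 ng/ml) and ionomycin (1 uM), a phorbol ester and a calcium ionophore that act downstream of the T cell receptor. T0 cells were unstimulated, and whether they spent those hours in culture is not settled by the labels, so culture and stimulus cannot be told apart. The 34 Affymetrix arrays held 4 A/J and 4 C57BL/6J arrays and 3 of each other strain at T1, and the same numbers at T0; the labels call them biological replicates, with no word on pooling.

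All values are log2 intensities from RMA, so a difference of 1 is a doubling, and levels of different genes are not set against each other. A gene is called at an adjusted p under 0.05, from limma's moderated tests with Benjamini-Hochberg adjustment over the 11413 genes kept. Cd4 averaged 8.54 at T1, against 9.40 at T0, and Cd3e 8.72 at T1, against 9.46 at T0. Genes of other cells were also measured: the erythroid gene Alas2 averaged 9.95 at T1 and 9.76 at T0, and the B cell gene Cd79a 7.05 at T1 and 8.91 at T0. Of the marker lists, 7 of 11 B cell, 7 of 8 neutrophil and 6 of 11 myeloid genes fell, and 4 B cell genes rose. Over all genes kept, 46.3% were called lower at T1 and 36.0% higher. The mean log2 value of the B cell list was 6.54 to 7.29 over the T1 arrays, against 7.16 to 8.98 over the T0 arrays; the part of these cells in the results was not tested. In bulk RNA, fewer cells of a type and less RNA per cell cannot be told apart. The array labelled Balb/c T1 replicate 2 had the lowest mean correlation with its own group (0.948).

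These stretches of sequence are shown because they hold the motif matches named in the results below, in genes that moved in different ways. Of the 33 measured members, 28 matched RefSeq's promoter table (GRCm38.p6), whose windows run from 250 bases before to 50 after each gene start. The motifs searched, on both strands, were CACGTG, the E box bound by Myc among other factors, TTTGGCGC or TTTCCCGC, E2F-type sites, and TGAGTCA, the AP-1 site. CACGTG stood in 7.15% of all 32851 windows, the E2F-type letters in 1.56% and TGAGTCA in 5.2%. Counted by gene, CACGTG was found in 4 of the 28 members (Atic, Nme1, Paics and Tyms) against 8.09% of all genes, the E2F-type letters in 2 (Ppat and Prps2) against 1.8%, and TGAGTCA in 3 (Adssl1, Aprt and Nme1) against 5.95%. A match describes letters in a window and is not a shown binding site. Capitals mark CACGTG in Nme1, Atic, Tyms and Paics and GCGGGAAA, the reverse complement of TTTCCCGC, in Ppat; each line is read 5′ to 3′ on the gene's strand and holds the 250 bases before the start, except for Paics, where 10 bases flank the match.
Nme1 (chr11:93968273-93968522, strand minus): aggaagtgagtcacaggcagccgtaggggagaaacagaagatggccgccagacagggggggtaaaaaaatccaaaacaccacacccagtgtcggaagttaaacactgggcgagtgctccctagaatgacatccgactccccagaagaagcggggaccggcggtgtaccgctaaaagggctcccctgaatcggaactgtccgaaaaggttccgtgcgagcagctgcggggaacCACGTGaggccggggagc
Atic (chr1:71556906-71557155, strand plus): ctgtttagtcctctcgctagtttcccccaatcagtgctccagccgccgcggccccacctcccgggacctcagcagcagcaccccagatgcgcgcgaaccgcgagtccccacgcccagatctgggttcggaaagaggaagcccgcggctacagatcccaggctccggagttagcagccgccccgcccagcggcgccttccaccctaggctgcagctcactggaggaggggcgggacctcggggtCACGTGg
Tyms (chr5:30073626-30073875, strand minus): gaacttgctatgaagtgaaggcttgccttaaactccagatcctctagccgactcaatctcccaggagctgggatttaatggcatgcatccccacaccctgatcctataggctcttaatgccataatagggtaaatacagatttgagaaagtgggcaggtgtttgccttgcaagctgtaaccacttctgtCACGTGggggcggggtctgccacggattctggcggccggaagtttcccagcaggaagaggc
Ppat (chr5:76951579-76951828, strand minus): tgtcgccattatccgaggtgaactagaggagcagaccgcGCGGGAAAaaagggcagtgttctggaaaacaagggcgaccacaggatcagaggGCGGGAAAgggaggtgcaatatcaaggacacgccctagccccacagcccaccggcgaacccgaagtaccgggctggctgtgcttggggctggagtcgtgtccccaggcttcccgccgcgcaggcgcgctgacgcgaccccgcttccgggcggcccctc
Paics (chr5:76951089-76951114, strand plus): cctcggaaagCACGTGgagggacctg
The match shown lay 18 bases before the start of Nme1, which has a second window with a different start and a match 29 bases before it. The other CACGTG matches lay 7 bases before the start of Atic, 61 before that of Tyms and 203 before that of Paics, and those of Ppat lay 211 and 158 before its start. Ppat and Paics lie head to head on chromosome 5 with starts that overlap by 277 bases on opposite strands, so the Paics match also falls inside the Ppat gene.

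Averaged over the 5 strains, 20 of the 33 members rose with stimulation, 9 fell and 4 did not pass the test. Of all 11413 genes, 82.3% were called: 36.0% were higher at T1 and 46.3% lower. The median change of the members was 0.43, against -0.07 over all genes. In 15 members the rise was called in each of the 5 strains, which held for 13.8% of all genes. Stimulation took a median of 77% of each member's variation across arrays and strain 9.1%, against 45.8% and 9.9% over all genes. The counts moved with the scaling: 23 members rose and 8 fell after renewed quantile normalization, and 23 rose and 5 fell with each array centred on its median. Over all genes, 43.8% of the calls were higher at T1 as deposited, 51.5% after renewed quantile normalization and 60.5% after centring, which moved the median change of all genes by 0.23.

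**Figure D1:**
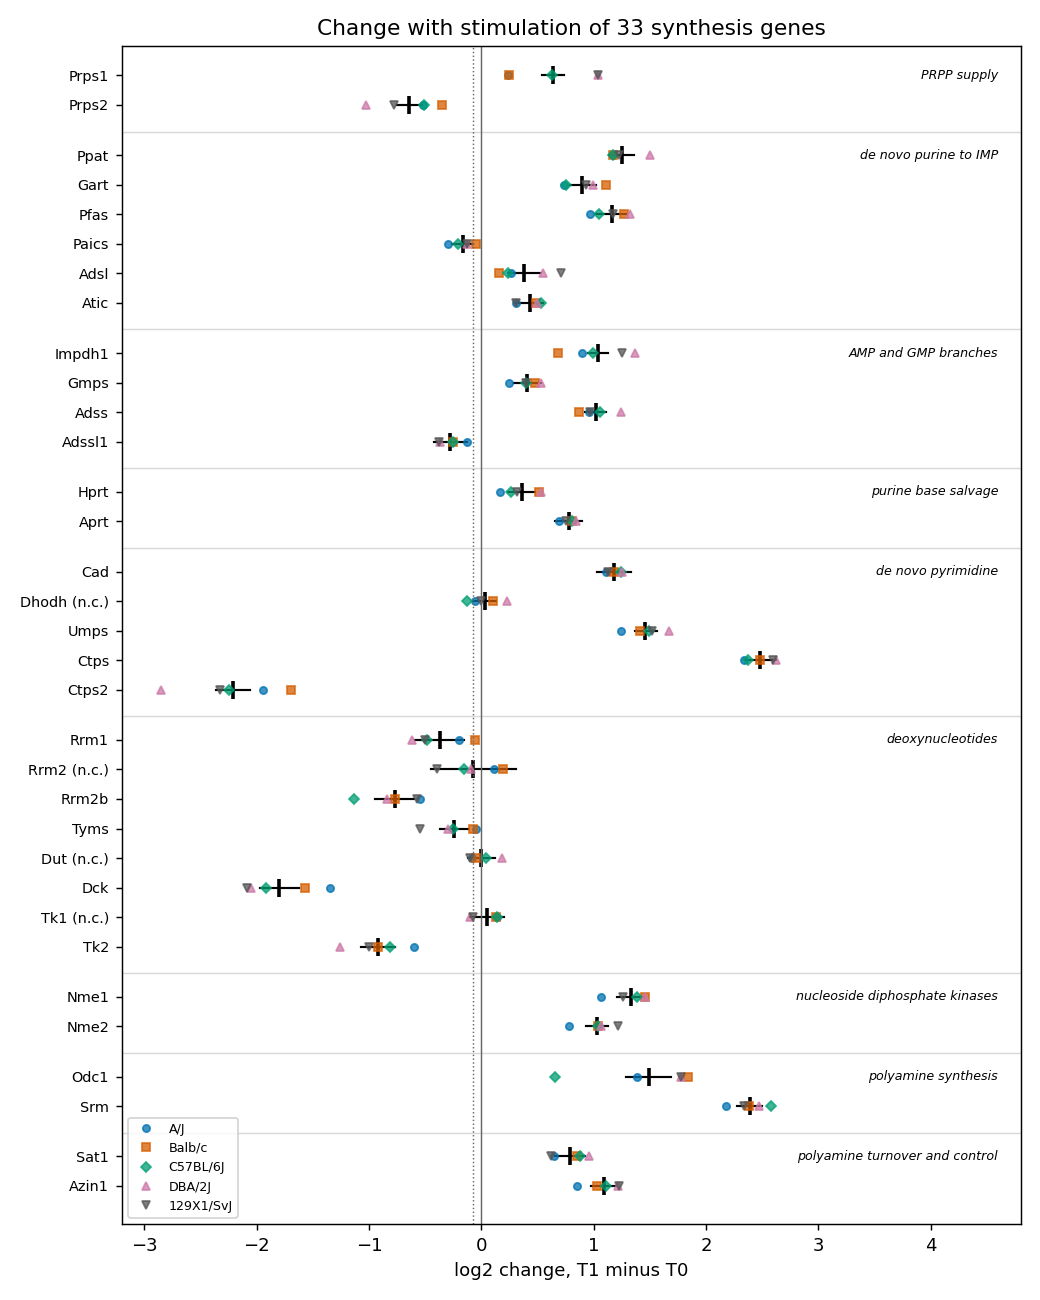
Each row is a gene, grouped by role, and the horizontal axis is its log2 change, T1 minus T0. The vertical tick is the mean over the 5 strains with its 95% confidence interval, small symbols are the 5 strains (3 or 4 arrays per time), the dotted line is the median over all genes (-0.07) and n.c. marks the 4 genes not called; Ctps and Srm lie farthest right, at 2.48 and 2.39, and Ctps2 and Dck farthest left, at -2.21 and -1.80.

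PRPP synthetase, which makes the sugar donor of both pathways, has an X-linked pair of genes, Prps1 and Prps2, and they moved in opposite directions. Prps1 ran from 10.52 to 10.89 with a median of 10.68 on the 17 T1 arrays, against 9.54 to 10.70 with a median of 10.14 on the 17 T0 arrays. Prps2 ran from 6.64 to 7.50 (median 7.15) at T1, against 7.45 to 8.13 (median 7.74) at T0. The groups overlapped for Prps1, where A/J and Balb/c were already high at T0, and barely for Prps2. Prps1 rose by 0.64 (SE 0.05, adjusted p = 2.83e-13) and Prps2 fell by 0.64 on the log2 scale (SE 0.05, adjusted p = 2.33e-12). The change of Prps2 minus that of Prps1 was -1.28 (permutation p = 1e-05, the smallest that 100000 resamples can give; 1.7e-05 adjusted over 7 pairs tested).

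Among the 6 genes of the purine path to inosine monophosphate (IMP), 5 rose and 1 fell. Ppat, the amidotransferase that commits PRPP to purines, ran from 9.32 to 9.93 (median 9.58) at T1, against 8.14 to 8.71 (median 8.34) at T0. Every T1 array lay above every T0 array, which held for 9.28% of all genes in this direction. Ppat rose 2.37-fold, by 1.25 (SE 0.05, adjusted p = 1.54e-19). Paics, whose start overlaps that of Ppat and whose product carries out a later pair of steps, ran from 9.64 to 10.34 (median 10.11) at T1, against 10.11 to 10.40 (median 10.27) at T0. Its change was -0.16 (SE 0.05, adjusted p = 0.00141) as deposited, -0.31 after renewed quantile normalization and 0.06, not called, after centring. The neighbours thus differed in direction as deposited, and the Paics direction was not stable to scaling. Pfas, the amidotransferase of the fourth step, rose by 1.16 (SE 0.07). Gart, a protein with several activities of the path, rose by 0.90 (SE 0.05). Each gene's T1 arrays lay above all its T0 arrays, though narrowly. The lowest T1 and highest T0 arrays read 7.33 and 7.24 for Pfas, and 8.49 and 8.48 for Gart. Atic, which closes the ring to IMP, rose by 0.43 (SE 0.06) and Adsl by 0.38 (SE 0.07), with overlapping groups and calls in 4 and 2 of the 5 strains.

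The branches from IMP rose in 3 of the 4 measured genes. Impdh1, an isozyme of the rate-limiting step to GMP, ran from 8.04 to 8.78 (median 8.54) at T1, against 7.22 to 7.72 (median 7.45) at T0, with no overlap. It rose by 1.04 (SE 0.05, adjusted p = 3.08e-19), and Gmps, which completes GMP, rose by 0.41 (SE 0.06). Adss, the adenylosuccinate synthetase of the AMP branch, ran from 10.54 to 11.08 (median 10.79) at T1, against 9.48 to 10.10 (median 9.80) at T0. It rose by 1.02 (SE 0.05), again with no overlap. Its paralog Adssl1, the form known from muscle, was dim, at 4.75 to 5.45 at T1, against 4.90 to 5.95 at T0, with means of 5.17 and 5.45 near the filter limit of 5.327. Its change of -0.28 (adjusted p = 0.000824) was -0.05 and not called after centring, and in no single strain was it called. The salvage enzymes that recover purine bases both rose, Aprt by 0.78 (SE 0.06, called in 5 strains) and Hprt by 0.36 (SE 0.06, called in 3 strains).

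In the pyrimidine path 3 of 5 genes rose, 1 fell and 1 was not called. Cad, the protein with the first 3 activities, ran from 7.55 to 8.84 (median 8.37) at T1, against 6.72 to 7.55 (median 7.08) at T0. Umps, which joins the ring to PRPP and makes UMP, ran from 9.28 to 9.96 (median 9.79) at T1, against 8.09 to 8.47 (median 8.28) at T0. Both lay higher on every T1 array, Cad only just, and rose by 1.18 (SE 0.07) and 1.46 (SE 0.05). Dhodh, the mitochondrial step between them, gave 0.03 (SE 0.05, adjusted p = 0.6) as deposited, and 0.21 and 0.26, both called, after renewed quantile normalization and centring.

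CTP synthetase, the last step of the path, has a pair of genes that moved in opposite directions. Ctps ran from 8.72 to 9.60 (median 9.30) at T1, against 6.59 to 7.10 (median 6.80) at T0. Ctps2 ran from 5.86 to 7.33 (median 6.66) at T1, against 8.61 to 9.14 (median 8.91) at T0. No array of either gene fell in the range of the other time. Ctps rose 5.6-fold, by 2.48 (SE 0.07, adjusted p = 8.93e-25), the 77th largest rise of all 11413 genes. Ctps2 fell to 0.216 times its T0 level, a change of -2.21 (SE 0.07, adjusted p = 4.53e-22). The difference between their changes was 4.70 (permutation p = 1e-05, adjusted 1.7e-05). It stayed between 4.63 and 4.75 under the 5 alternatives run for pairs and on leaving out any single array. Centring and the mean of a gene's probe sets could not change this difference.

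**Figure D2:**
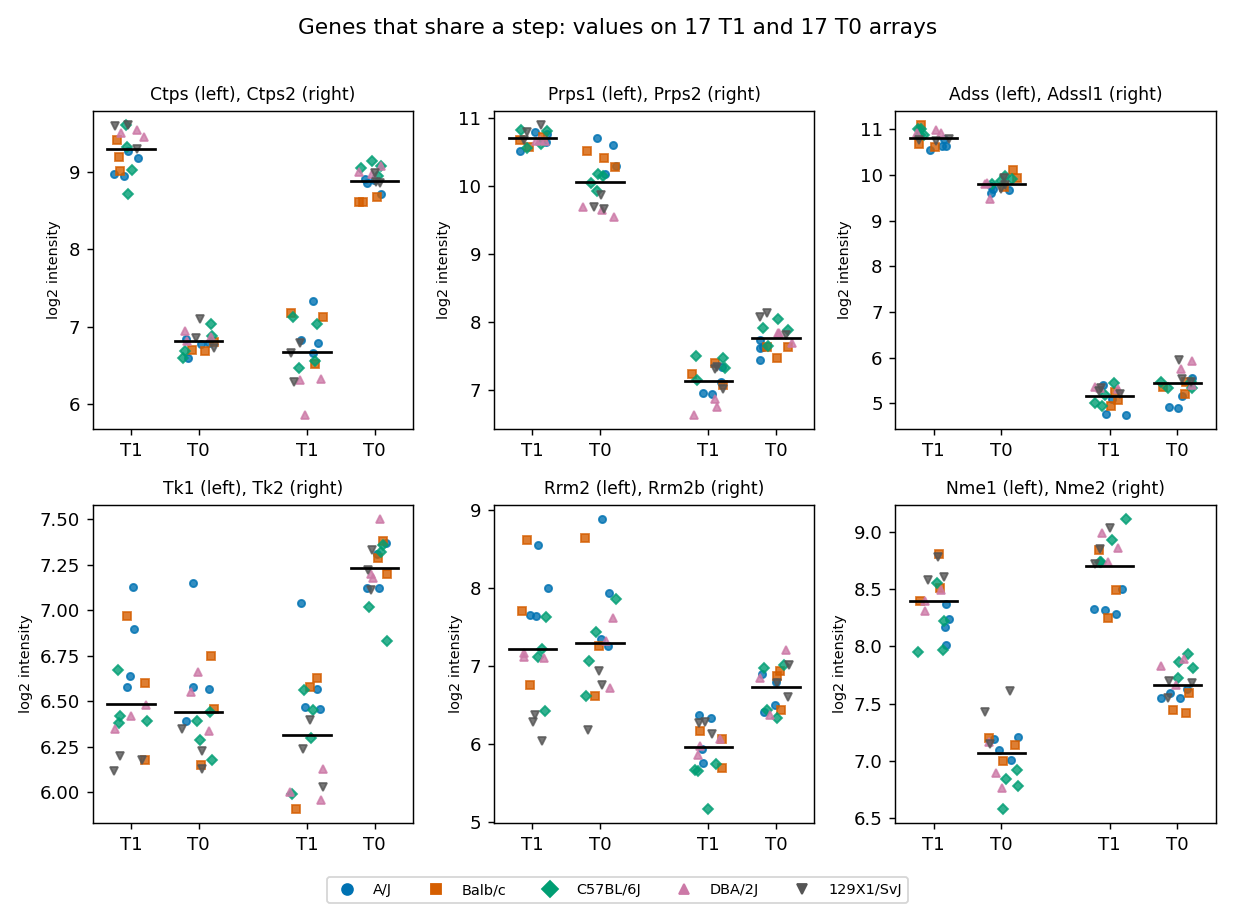
Each panel shows the log2 intensity of a pair of genes on the 17 T1 arrays and the 17 T0 arrays, 1 symbol per array and strain, with bars at the mean of the 5 strain means; the first gene is on the left and levels of different genes are not comparable. The T1 arrays of Ctps all lie above its T0 arrays and those of Ctps2 all below, while the T1 and T0 arrays of Rrm2 and Tk1 covered the same range.

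The 8 genes of deoxynucleotide supply gave no rise, 5 falls (62.5%) and 3 without a call as deposited. Of all genes, 36.0% were called higher and 46.3% lower. With renewed quantile normalization Dut and Tk1 were called higher and 4 fell, and with centring the same 2 genes were called higher and 3 fell. Dck, which phosphorylates deoxycytidine and other deoxynucleosides, ran from 6.16 to 7.46 (median 6.54) at T1, against 8.19 to 8.83 (median 8.43) at T0. Every T1 array lay below every T0 array, as for 17.5% of all genes. The change was -1.80 (SE 0.09, adjusted p = 4.58e-18). Tk2, the mitochondrial thymidine kinase, changed by -0.92 (SE 0.07) and Rrm2b, the ribonucleotide reductase subunit induced by p53, by -0.77 (SE 0.09), each called in 5 strains. These 3 falls were called under both scalings.

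Rrm2, the subunit of ribonucleotide reductase made in S phase, ran from 6.04 to 8.61 (median 7.17) at T1, against 6.18 to 8.88 (median 7.26) at T0. The groups covered the same range, and the difference was -0.07 (SE 0.19, adjusted p = 0.746), 0.14 after renewed quantile normalization and 0.16 after centring. Its 95% confidence interval, -0.45 to 0.31, was the widest of the members. Rrm1, the large subunit, changed by -0.37 (SE 0.11) and Tyms, thymidylate synthase, by -0.24 (SE 0.06); both calls were lost after centring (adjusted p = 0.238 and 0.817), and that of Tyms also after renewed quantile normalization (0.0911). Dut, which removes dUTP, gave 0.00 (SE 0.06) and Tk1, the thymidine kinase of dividing cells, 0.05 (SE 0.07), neither called as deposited. Both probe sets of Tk1 agreed, with 0.05 and -0.02. Within the pairs, the change of Rrm2 minus that of Rrm2b was 0.71 (permutation p = 0.0051, adjusted 0.0051), and that of Tk1 minus that of Tk2 was 0.96 (permutation p = 1e-05, adjusted 1.7e-05).

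Nme1 and Nme2, nucleoside diphosphate kinases that spread phosphate among the triphosphates, are neighbours on chromosome 11 and similar in sequence, and cross-hybridisation between them was not tested. Nme1, with CACGTG just before its start, ran from 7.95 to 8.81 (median 8.40) at T1, against 6.58 to 7.61 (median 7.09) at T0. Nme2 ran from 8.25 to 9.11 (median 8.74) at T1, against 7.42 to 7.93 (median 7.66) at T0. Neither gene's groups overlapped. Nme1 rose by 1.33 (SE 0.06) and Nme2 by 1.03 (SE 0.05), and the difference of 0.30 passed the permutation test (p = 8e-05, adjusted 0.00011). Of the other CACGTG genes, Atic rose by 0.43, while Paics (-0.16) and Tyms (-0.24) changed in the other direction as deposited.

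The polyamine members measured, Odc1, Srm, Azin1 and Sat1, all rose. Other polyamine genes, given below, did not all rise. Odc1, ornithine decarboxylase, the first and rate-limiting enzyme, ran from 10.34 to 11.21 (median 10.68) at T1, against 8.44 to 10.47 (median 9.16) at T0. Only C57BL/6J arrays at T0 reached into the T1 range. Srm, spermidine synthase, ran from 9.96 to 10.72 (median 10.25) at T1, against 7.62 to 8.52 (median 7.92) at T0, with a wide gap. Odc1 rose by 1.49 (SE 0.10, adjusted p = 5.65e-15) and Srm by 2.39 (SE 0.05, adjusted p = 1.9e-26), the 84th largest rise of all genes. Azin1, the antizyme inhibitor that protects ornithine decarboxylase from breakdown, rose by 1.09 (SE 0.05), 0.40 less than Odc1, its paralog (permutation p = 0.0013, adjusted 0.0015). Sat1, which acetylates polyamines for export or breakdown, ran from 10.75 to 11.32 (median 11.03) at T1, against 9.86 to 10.56 (median 10.28) at T0. Sat1 rose by 0.79 (SE 0.06), so the measured members of synthesis and of turnover rose together.

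In the single strains, 20 members were called higher in DBA/2J (background 23.8% of all genes), 19 in 129X1/SvJ (21.6%), 18 in C57BL/6J (25.1%), 18 in Balb/c (20.6%) and 17 in A/J (20.3%). Those called lower were 6 in DBA/2J (background 36.2%), 6 in 129X1/SvJ (34.7%), 6 in C57BL/6J (38.6%), 6 in A/J (36.3%) and 5 in Balb/c (34.1%). A moderated F test asked whether the response differed over the strains. It called 4 of the 33 members (12.1%), against 6.92% of all genes: Prps1, Impdh1, Ctps2 and Odc1. In these 4 the sign was the same in every strain and the size differed. With same-numbered arrays of a strain treated as a block, the test called 15.2% of the members, against 12.1% of all genes.

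Prps1 differed between strains at T0, and its strain means were not called different at T1. At T0 its A/J arrays read 10.60, 10.70, 10.29 and 10.17, those of Balb/c 10.41, 10.51 and 10.28, and those of C57BL/6J 10.18, 10.14, 9.92 and 10.04. Those of DBA/2J read 9.54, 9.65 and 9.69 and those of 129X1/SvJ 9.67, 9.69 and 9.87. The DBA/2J and 129X1/SvJ arrays lay below all others, and A/J and Balb/c overlapped. At T1 all strain means lay between 10.65 and 10.79. The difference was 1.04 for DBA/2J and for 129X1/SvJ (SE 0.12 each), 0.63 for C57BL/6J, 0.25 for Balb/c (adjusted p = 0.0667) and 0.24 for A/J (adjusted p = 0.0419). The F test gave adjusted p = 5.69e-07 at T0, 0.836 at T1 and 0.000318 for the response, with the first and last called under every alternative and without any single array. The B cell list, by its mean log2 value, also differed at T0, with 8.64 for 129X1/SvJ, 8.42 for DBA/2J, 7.77 for Balb/c, 7.70 for C57BL/6J and 7.46 for A/J; 129X1/SvJ and DBA/2J, with the highest B cell means, had the lowest Prps1. At T1 those means lay between 6.67 and 7.16. The part of B cells in the Prps1 result was not tested.

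Odc1 stood out in C57BL/6J. Its T0 arrays read 9.96, 9.93, 10.47 and 10.35 there, against 8.79, 8.88, 9.19 and 9.60 in A/J and 8.58, 9.30 and 9.08 in DBA/2J; the arrays of 129X1/SvJ read 8.59, 8.61 and 9.16 and those of Balb/c 8.67, 8.44 and 9.34. Each C57BL/6J array lay above all T0 arrays of the other strains. At T1 the strain means ran from 10.50 to 10.83 and did not pass the F test (adjusted p = 0.612). The rise was 0.66 (SE 0.20) in C57BL/6J and 1.39 to 1.84 in the other 4. The F test at T0 held throughout (adjusted p = 1.31e-05), but the test of the response (adjusted p = 0.0257) did not. It gave 0.054 to 0.0773 without C57BL/6J T0 replicate 3 or 4 or C57BL/6J T1 replicate 3 or 4, 0.0666 after centring, and 0.163 on the second probe set of Odc1. The mean log2 value of the neutrophil list at T0 was lowest for C57BL/6J, at 5.20, against strain means of 6.34 to 7.09 elsewhere. Its C57BL/6J arrays read 5.03, 4.93, 5.53 and 5.31, in the order of the Odc1 values above. The nearest array of another strain was Balb/c T0 replicate 2, at 5.70, where Odc1 read 8.44. The part of neutrophils in the Odc1 result was not tested.

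Impdh1 rose most in DBA/2J and least in Balb/c. At T1 its arrays read 8.72, 8.78 and 8.68 in DBA/2J and 8.75, 8.66 and 8.71 in 129X1/SvJ, above the 8.37, 8.05 and 8.04 of Balb/c. The rise was 1.37 (SE 0.11) for DBA/2J, 1.25 for 129X1/SvJ, 0.99 for C57BL/6J, 0.90 for A/J and 0.68 (SE 0.11) for Balb/c (F adjusted p = 0.0136), called in all alternatives. Ctps2 reached its lowest values in DBA/2J, where T1 arrays read 5.86, 6.33 and 6.31, against 8.97 to 9.07 at T0. In Balb/c they read 7.18, 6.52 and 7.13 at T1, against 8.61, 8.68 and 8.61 at T0. Its change was -2.85 (SE 0.18) in DBA/2J and -1.69 (SE 0.18) in Balb/c. The F test of that response gave adjusted p = 0.0186, and 0.0681 without DBA/2J T1 replicate 2.

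**Figure D3:**
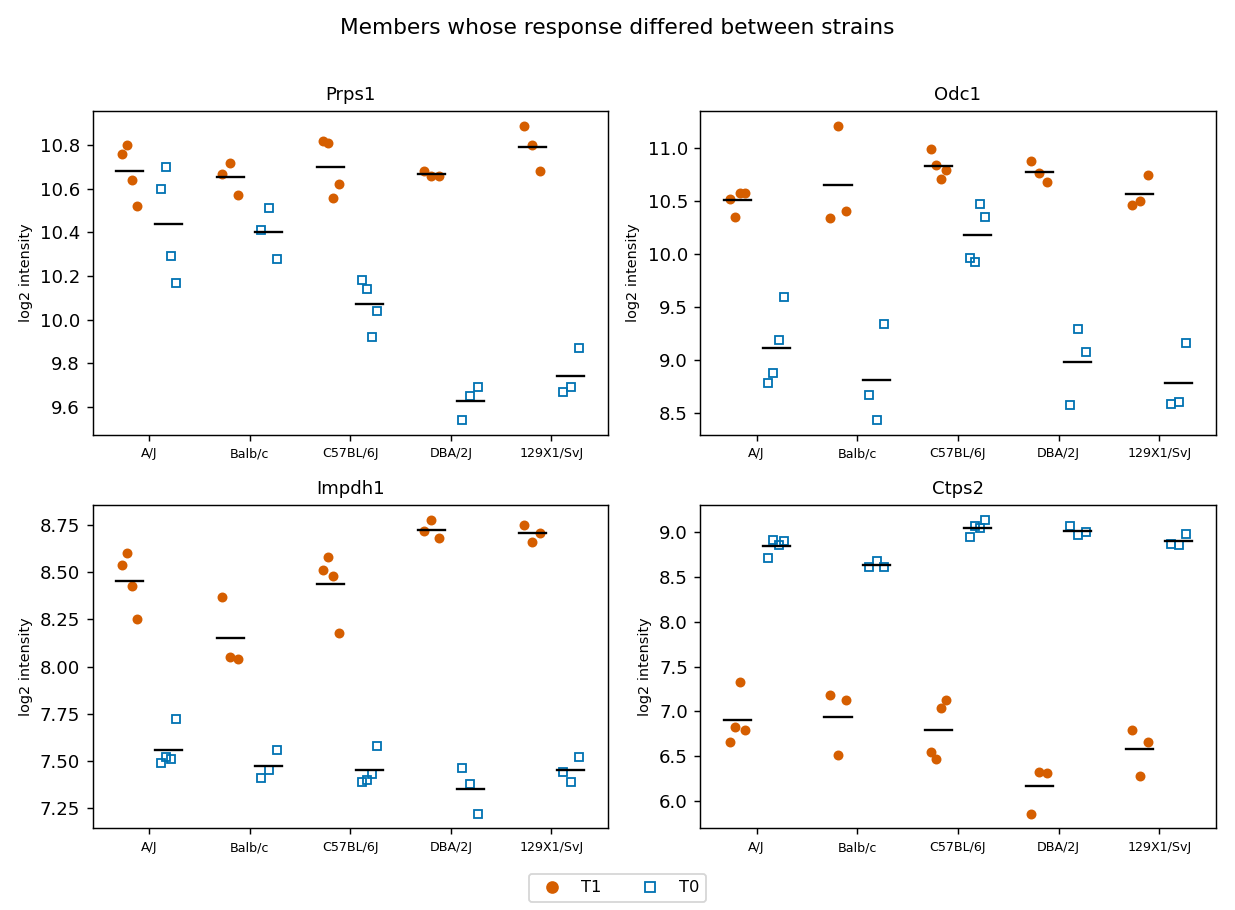
Log2 intensity on every array of the 4 members whose response differed between strains, T1 (filled circles) left of T0 (open squares) within each strain, with bars at group means. Prps1 and Odc1 differ at T0 and meet at T1, whereas Impdh1 and Ctps2 spread mainly at T1.

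At T0 the F test over strains called 9 of 33 members (27.3%), against 18.5% of all genes. Only Prps1, Odc1 and Azin1 stayed called on leaving out any array. The Azin1 means were 9.51 for A/J, 9.23 for Balb/c, 9.22 for DBA/2J, 8.98 for C57BL/6J and 8.90 for 129X1/SvJ (F adjusted p = 0.000745), with SD of 0.16 to 0.21 within strains. The others were Prps2, Pfas, Cad, Adssl1, Nme1 and Srm. The count fell to 5 (15.2%) without 129X1/SvJ T0 replicate 1, against 16.6% of all genes in that fit, and to 4 (12.1%) without 129X1/SvJ T0 replicate 4, against 16.4%. The share above background at T0 thus depended on single arrays.

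At T1 the F test called 18 of 33 members (54.5%), against 31.0% of all genes. A/J had the highest mean in all 6 deoxynucleotide genes called, and 129X1/SvJ the lowest in 4. Among the 12 other members called, A/J had the lowest mean in 8 and 129X1/SvJ the highest in 5. For these same 18 members, the counts were the same after renewed quantile normalization and after centring, except that A/J was then highest in 1 of the 12. Rrm2b, a deoxynucleotide gene just short of a call (F adjusted p = 0.0504), had its highest T1 mean in 129X1/SvJ (6.22), against 6.10 in A/J. It was called in 5 of the 8 alternatives, so the count of 6 of 6 for A/J depended on the threshold. Counting only the 12 members whose call held without any single array, A/J was highest in 3 of 3 deoxynucleotide genes and lowest in 5 of 9 others. The order of strains within a gene was not itself tested. How often A/J or 129X1/SvJ was highest or lowest among all genes called at T1 was not counted, so these counts have no background.

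Dck at T1 averaged 7.12 ± 0.31 for A/J (SD, n = 4), 6.82 ± 0.62 for Balb/c (n = 3), 6.55 ± 0.27 for C57BL/6J (n = 4), 6.35 ± 0.10 for DBA/2J (n = 3) and 6.31 ± 0.21 for 129X1/SvJ (n = 3), with an F adjusted p = 0.00499 from limma. At T0 the same strains lay within 0.08 of each other, but the response of Dck was not called different between strains (F adjusted p = 0.237 from limma). Tyms at T1 averaged 6.04 in A/J and 5.44 in 129X1/SvJ (adjusted p = 0.00348), and Rrm1 8.67 in A/J and 7.88 in C57BL/6J (adjusted p = 0.012). Rrm2 ranged most, from 7.96 in A/J to 6.23 in 129X1/SvJ (adjusted p = 0.0148), a call lost without 129X1/SvJ T1 replicate 2 (0.0526). Tk1 (0.0304) and Tk2 (0.0438) were called with all arrays and lost the call without any of 5 and 9 arrays. In the other direction, Pfas averaged 7.56 ± 0.11 in A/J (SD, n = 4) and 8.40 ± 0.16 in 129X1/SvJ (n = 3), with an F adjusted p = 0.000358 from limma. Cad averaged 7.97 in A/J and 8.63 in 129X1/SvJ (0.0119), Gart 8.71 and 9.25 in the same strains (0.00426) and Srm 10.01 and 10.58 (0.00117).

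**Figure D4:**
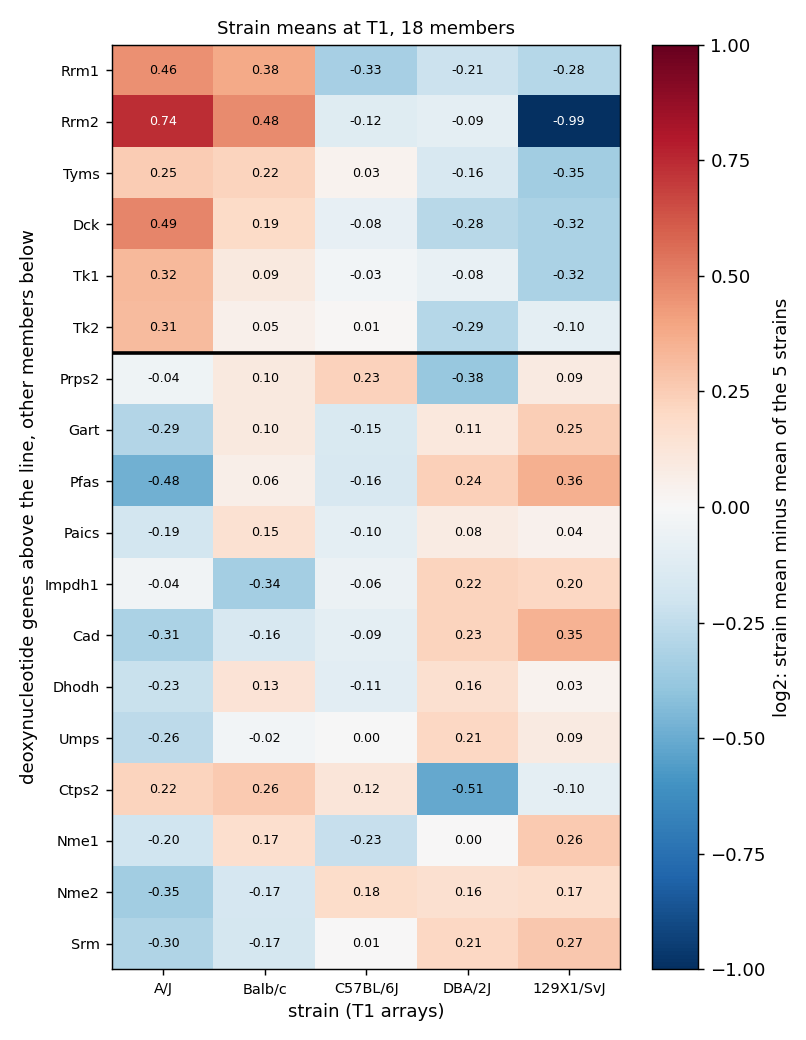
Colour and number give each strain's T1 mean minus the mean of the 5 strains, in log2 units, for the 18 members called by the F test at T1, 6 deoxynucleotide genes above the line and 12 others below. The A/J column is highest for all 6 above the line and lowest for 8 of the 12 below it, and the 129X1/SvJ column is lowest for 4 and highest for 5.

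Genes of other cells and of the cell cycle also differed between strains. The mean log2 value of the erythroid markers measured at T1 was 8.80 for A/J, 8.55 for DBA/2J, 8.09 for Balb/c, 7.50 for C57BL/6J and 6.04 for 129X1/SvJ. That of 23 S phase and mitosis genes at T1 was 7.13 for A/J, 7.08 for Balb/c, 6.81 for DBA/2J, 6.65 for C57BL/6J and 6.45 for 129X1/SvJ. Rrm2 was highest on the A/J T0 replicate 5 array (8.88), where the erythroid mean was 9.11 and the S phase mean 7.78, and lowest on 129X1/SvJ T1 replicate 2 (6.04), where they were 6.00 and 6.29. Of the erythroid list, 8 of 14 genes were measured; 7 were not called with stimulation and Tfrc, the transferrin receptor, which activated T cells also carry, rose by 2.20. All 8 differed over strains at T0 and 7 at T1. The same test called 18.5% of all genes at T0 and 31.0% at T1. The T cell list, of which 8 of 9 genes were called over strains at T1, had T1 means of 9.44 for A/J, 9.31 for Balb/c, 9.26 for C57BL/6J, 8.88 for DBA/2J and 8.88 for 129X1/SvJ. The part of cell composition in the Rrm1, Rrm2, Tyms, Tk1, Tk2 and Dck results was not tested.

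**Figure D5:**
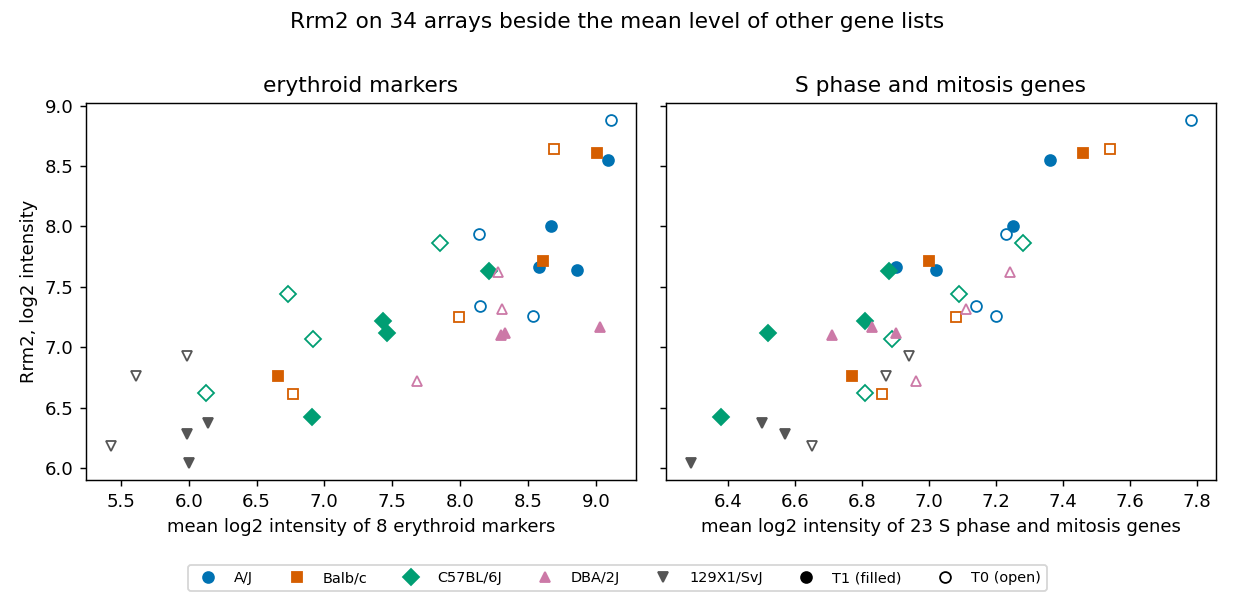
Rrm2 log2 intensity on the 34 arrays against the mean log2 intensity of 8 erythroid markers (left) and of 23 S phase and mitosis genes (right), with T1 filled, T0 open and 1 symbol per strain. The 129X1/SvJ arrays have erythroid means of 5.43 to 6.14, at the low end, their S phase means (6.29 to 6.94) overlap those of other strains, and A/J replicate 5 and Balb/c replicate 4 lie at the high end of Rrm2 at both times.

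Genes around the members moved as follows. In folate one-carbon metabolism, which feeds purine and thymidylate synthesis, 5 of 6 measured genes rose and 1 fell. Shmt1 rose by 2.57, Mthfd2 by 1.96 and Shmt2 by 1.36, while Mtr changed by -0.62. In hypusination, the use of spermidine to modify Eif5a, 3 of 4 rose, with Eif5a at 1.16 and Dohh at 0.76, and Eif5a2 changed by -0.23. Of 7 other polyamine genes, 5 rose and 2 fell. Arg1, which makes ornithine, rose by 1.75, the transporter Atp13a3 by 0.81 and Smox, spermine oxidase, by 0.33, while Oaz2, an antizyme, changed by -1.15 and Atp13a2 by -0.74. In the methionine group 3 of 6 rose and 2 fell, among them Mtap (1.26), which salvages the by-product of spermidine synthesis, Enoph1 (0.47), Mat2b (-1.28) and Adi1 (-0.45).

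Salvage and breakdown genes were mixed. Of 13 purine genes, 2 rose (Ampd2 by 0.78 and Ampd1 by 0.28) and 7 fell, among them Adk, adenosine kinase (-1.63), and Samhd1, which degrades deoxynucleotides (-1.60). Of 11 pyrimidine genes, 6 rose and 4 fell, with Uck2, a uridine-cytidine kinase, at 1.63, Dctpp1 at 0.82, Uckl1 at -0.96 and Nt5c3b at -0.53. Of 9 nucleotide kinases, 2 rose slightly (Ak1 by 0.12 and Dtymk by 0.11) and 4 fell, led by Nme7 (-1.64) and Ak3 (-1.20). Over these 7 lists together 26 of 56 genes rose and 21 fell, against the 36.0% and 46.3% of all genes given above.

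Cell cycle genes did not rise as a list in the values as deposited. Of 22 S phase and mitosis genes, 2 rose (Ccne2 by 0.31 and Pcna by 0.20) and 12 fell, including the helicase subunit Mcm6 (-0.95) and the primase Prim1 (-0.95). The other 8 were not called, among them Mki67 (-0.09, SE 0.21). Of all genes, 36.0% were called higher and 46.3% lower. The list's median change was -0.20, smaller in size than the 0.23 by which centring moved the median of all genes, and the list was not counted under other scalings. Myc, a transcription factor known to bind promoters of nucleotide genes, rose by 3.22 (SE 0.06). Of the 7 genes kept from the list of Myc and its partners, 2 rose, 3 fell and 2 were not called, with Mnt at 0.21, Mxd1 at -1.12 and Mxd4 at -1.70. Among marker lists, 2 of 9 T cell genes rose (Zap70 by 1.18 and Cd28 by 0.39) and 5 fell, led by Cd3g (-1.66) and Cd247 (-0.88). The B cell genes that fell farthest were Cd79b (-4.21) and Fcrla (-2.22), while Cr2 (0.93) and Blk (0.76) rose. Ngp (-1.96) and S100a9 (-1.94) led the neutrophil falls and Lyz2 (-1.29) and Itgam (-1.18) the myeloid ones. Of 8 CD8 T and NK genes, 2 rose (Nkg7 by 1.24 and Prf1 by 1.23) and 5 fell, led by Klrd1 (-1.35) and Eomes (-1.11), and the single platelet gene kept was not called.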

How the data were processed

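Per the submitters' processing notes, the authors made the values with RMA, a method that corrects background, normalizes by quantiles and summarises probes; they deposited 1 log2 intensity for each probe set on every array. The RMA version was not stated in what was used. Probe sets were named through GEO's platform annotation and RefSeq (GRCm38.p6): of 35556, 21789 had 1 symbol, 1621 several and 12146 none. Each of 19938 genes was its brightest probe set with 1 symbol, kept if its highest group mean (10 groups) was at least the median of the table (5.327). The number of arrays limits precision.

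A single limma 3.58.1 model (R 4.3.3) on 34 arrays gave the mean of the 5 strain differences (T1 minus T0), each strain's difference, and moderated F tests over strains at either time and for the response, with Benjamini-Hochberg adjustment over 11413 genes. Pairs of genes sharing a step, and Odc1 with its paralog Azin1, were compared by permuting T0 and T1 labels within strain (two-sided, 100000 resamples). P values were adjusted over 7 testable pairs, and the pair of Impdh2 and Impdh1 could not be tested. The code was tested on simulated data.

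All measured members are named. Of each other list, the 2 largest rises and falls among genes called are named, and always Myc, Mki67, Mthfd2, Shmt2, Eif5a, Uck2, Smox, Arg1 and Alas2. Cd4, Cd3e and Cd79a were added as checks of the sort. Members, lists and tests were chosen with earlier results of these data known, and the sequences printed were chosen after values were seen. Alternatives were no filter, a stricter filter, quantile normalization again, centring arrays, the mean of a gene's probe sets, eBayes with trend and robust settings, a replicate block, and leaving out arrays. P values measure the spread between these arrays, which may in part be technical.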

Additional observations from a re-analysis of the deposited data

Results flagged for a closer look

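In the groups of 4 arrays (A/J and C57BL/6J at each time), 4 of 132 member and group combinations held an array whose gap to its nearest neighbour, divided by the group's range, exceeded the critical value of Dixon's test for 4 values; chance gives about 1 in 20. Impdh1 on A/J T0 replicate 5 read 7.72, against 7.52 on the next array (ratio 0.888). Tk1 on C57BL/6J T1 replicate 3 read 6.67, against 6.42 (ratio 0.854). Rrm2b on the same array, C57BL/6J T1 replicate 3, was the lowest of its group at 5.17, against 5.65 (ratio 0.831). Srm on A/J T1 replicate 1 read 10.14, against 9.99 (ratio 0.831).

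The response differed between strains by the F test for Prps1 (adjusted p = 0.000318), Impdh1 (0.0136), Ctps2 (0.0186) and Odc1 (0.0257), from limma. For Prps1 and Odc1 the strains differed at T0 and their T1 means were not called different; for Impdh1 and Ctps2 the F test called T1 (adjusted p = 0.000651 and 0.00369) and not T0 (0.681 and 0.371).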

How the results depend on the processing

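The counts of members called stayed within 1.5 times of the main counts under all 8 alternatives: 28 to 31 for the mean stimulation (29 as reported), 7 to 11 for strains at T0 (9), 16 to 22 for strains at T1 (18) and 3 to 6 for the response (4). Leaving out single arrays gave 29, 4 to 10, 14 to 22 and 3 to 6, with 5 at T0 without 129X1/SvJ T0 replicate 1 and 4 without 129X1/SvJ T0 replicate 4. All 7 pairs kept their unequal response in the 5 alternatives run for pairs and without any single array. Centring cancels in a difference of 2 genes on the same array, so it could not change these results. The mean of a gene's probe sets could change only the pairs with Tk1 or Odc1. The filter and eBayes settings were not run for pairs. The labels do not say what a replicate number marks. Same-numbered T1 and T0 arrays had correlations of -0.078 to 0.474 between their deviations, over 0.1 in 14 of 17 and best with their own number in 12. Every number in Balb/c, C57BL/6J and 129X1/SvJ was best with its own, and the exceptions lay in A/J and DBA/2J. The arrays may thus be paired in some strains. The main model and the permutation took them as unpaired, because the pattern did not hold in every strain. The replicate block (consensus correlation 0.195) gave 29 members for the mean stimulation, 9 at T0, 18 at T1 and 5 for the response, where Prps2 was added (0.0208), while the response was then called in 1386 of all genes (12.1%), against 790 (6.92%) without it, so that the members' share (15.2%) lay nearer the background; at T1 it lost Tk2 (0.0616) and gained Ctps (0.0466). Directions turned for Paics after centring (0.06), for Rrm2 after renewed quantile normalization (0.14) and centring (0.16), and for Dut in the same settings (0.21 and 0.23) and without Balb/c replicate 2 at both times (0.00); without single arrays Dut ran from -0.03 to 0.02 and Rrm2 from -0.16 to 0.05. The cause was not tested. At T1, Umps lost its call without A/J T1 replicate 5 (0.0546), Rrm2 without 129X1/SvJ T1 replicate 2 (0.0526), Dhodh without A/J T1 replicate 2 or 4 or DBA/2J T1 replicate 3 (0.0532 to 0.0746), Tk1 without A/J T1 replicate 4 or 5 or any 129X1/SvJ T1 array (0.0611 to 0.108), and Paics (0.0505 to 0.092) and Tk2 (0.0508 to 0.162) each without any of 9 arrays. At T0, Nme1 (0.0563) and Srm (0.0639) lost theirs without 129X1/SvJ T0 replicate 4, Cad without any 129X1/SvJ T0 array (0.0581 to 0.0883), and Pfas, Adssl1 and Prps2 without any of 5, 9 and 11 arrays. Calls were also gained: Rrm2b at T1 (0.0504 with all arrays) when any of 10 arrays was left out, and Ppat (0.0249), Adss (0.0141) and Hprt (0.0198) at T1, Nme2 at T0 (0.032) and the response of Dck (0.023), among others, without Balb/c T1 replicate 2. Signal over background was not given per probe set, and Adssl1 lay near the filter limit.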
